A study of Homo sapiens with 30 samples.

Results

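The peaks described here are the sites at which chromatin immunoprecipitation (ChIP-seq) with an antibody against hNABP2 enriched DNA from WT HT1080 cells. All peaks in the authors' annotated peak tables of the 2 anti-hNABP2 repeats were taken, 10055 from repeat 1 and 2816 from repeat 2. These 12871 peaks compare with 25503 in the deposited lists of 15 libraries, of which 12603 belong to 13 run-on and DRIP libraries. The annotation leaves out 13 and 16 peaks of the 2 ChIP lists. HT1080 is a human fibrosarcoma line, and all cells were untreated and between passages 10 and 15. The series holds 30 libraries: ChIP from WT cells, global run-on from WT, hNABP2 KO and hNABP1 KO cells with or without NTP, and DRIP, which pulls down RNA:DNA hybrids, from WT cells and hNABP2 KO cells, each with and without RNase H. The antibody was homemade, per the labels. Values of the 2 rabbit IgG libraries, the ChIP control, were not analysed here, so no background level stands beside the peaks. The labels mention 2 independent experiments without saying how the ChIP repeats were grown, so the spread between repeats may be technical. The peak lists give no read counts, so the depth of the 2 ChIP libraries is unknown.

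hNABP2, also called hSSB1 and encoded by NABP2, is a single-stranded DNA binding protein with an OB fold. It works in the SOSS complex with INTS3 and INIP, in which hNABP1 (hSSB2, encoded by NABP1) can take its place, and the complex acts in the repair of DNA double-strand breaks. INTS3 is also a subunit of Integrator, which binds RNA polymerase II near gene starts, trims small nuclear RNA precursors and ends early transcription. The ChIP comparison asks where hNABP2 lies in unperturbed cells.

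Most bound sites were promoters, and those whose sequence could be read were mainly GC-rich. The sequences below show 250 bases upstream of a gene start, from RefSeq (GRCh38.p14), with every CpG dinucleotide in capitals. KMT5B (chr11:68213649-68213898, minus strand), IGF2R (chr6:159968832-159969081, plus strand) and PHF21A (chr11:46121455-46121704, minus strand) were among the promoters that ranked highest in both repeats. CIC (chr19:42269002-42269251, plus strand) held 1 of the highest folds of repeat 1 with no overlapping peak in repeat 2, and DACT1 (chr14:58637712-58637961, plus strand) the reverse. PTPRC (chr1:198638790-198639039, plus strand), a leukocyte gene with no peak, is shown for contrast.
KMT5B: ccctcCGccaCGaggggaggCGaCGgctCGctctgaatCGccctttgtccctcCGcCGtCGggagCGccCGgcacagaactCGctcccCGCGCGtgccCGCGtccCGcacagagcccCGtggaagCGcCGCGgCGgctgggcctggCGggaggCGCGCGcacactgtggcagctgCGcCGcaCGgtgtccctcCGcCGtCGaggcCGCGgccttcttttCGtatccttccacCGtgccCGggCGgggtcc
IGF2R: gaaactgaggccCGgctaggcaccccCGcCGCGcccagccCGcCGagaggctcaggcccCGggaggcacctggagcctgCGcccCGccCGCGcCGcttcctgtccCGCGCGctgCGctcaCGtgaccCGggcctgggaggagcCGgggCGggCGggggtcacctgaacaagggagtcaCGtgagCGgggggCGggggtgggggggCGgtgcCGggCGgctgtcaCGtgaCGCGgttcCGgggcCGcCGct
PHF21A: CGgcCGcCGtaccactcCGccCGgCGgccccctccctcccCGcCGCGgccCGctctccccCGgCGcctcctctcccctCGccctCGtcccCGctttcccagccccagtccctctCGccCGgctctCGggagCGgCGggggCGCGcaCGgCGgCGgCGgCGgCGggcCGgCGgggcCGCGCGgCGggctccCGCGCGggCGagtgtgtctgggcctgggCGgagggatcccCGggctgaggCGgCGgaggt
CIC: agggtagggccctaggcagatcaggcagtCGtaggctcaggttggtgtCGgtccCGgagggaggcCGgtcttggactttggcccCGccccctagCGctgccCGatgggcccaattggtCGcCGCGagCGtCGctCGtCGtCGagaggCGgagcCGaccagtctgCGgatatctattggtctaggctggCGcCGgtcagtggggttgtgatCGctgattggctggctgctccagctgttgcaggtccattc
DACT1: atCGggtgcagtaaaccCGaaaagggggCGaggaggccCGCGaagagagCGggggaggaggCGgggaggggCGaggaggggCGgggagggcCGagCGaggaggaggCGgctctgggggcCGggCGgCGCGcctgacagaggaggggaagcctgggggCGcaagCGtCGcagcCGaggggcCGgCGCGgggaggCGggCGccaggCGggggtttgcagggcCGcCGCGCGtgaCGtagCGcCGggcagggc
PTPRC: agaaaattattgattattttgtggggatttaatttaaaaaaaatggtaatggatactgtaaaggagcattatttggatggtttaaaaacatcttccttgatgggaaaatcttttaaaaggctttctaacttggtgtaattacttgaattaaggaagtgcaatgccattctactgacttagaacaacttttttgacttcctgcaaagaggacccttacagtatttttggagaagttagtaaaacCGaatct
GC content was 75.6% at KMT5B, 79.2% at IGF2R and 84.0% at PHF21A, with 39, 33 and 42 CpG dinucleotides in 250 bases. DACT1 had 78.4% and 33 CpG, CIC 65.2% and 21 CpG, and PTPRC 31.2% and 1 CpG. IGF2R held 6 copies of GGGCGG, the GC box that SP and KLF factors bind, and 3 of CACGTG, the E-box, while CIC held 4 copies of CCAAT, the CCAAT box. Both strands were searched and overlapping matches of different motifs were counted separately.

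Both repeats placed their peaks at gene starts. In repeat 1, 8981 peaks (89.3%, exact Clopper-Pearson 95% interval 88.7 to 89.9) were annotated within 1 kb of a start, and in repeat 2, 2658 (94.4%, 93.5 to 95.2). The peak itself covered the assigned start in 70.9% and 61.9%. Measured against the starts in the RefSeq promoter table, which does not hold chromosome 8 here, summits clustered just downstream. Among summits within 1 kb of such a start, 63.3% of 7053 in repeat 1 and 70.8% of 2054 in repeat 2 lay downstream. The median position was 49 bases downstream in repeat 1 (quartiles -53 and 125) and 107 bases downstream in repeat 2 (quartiles -28 and 229).

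**Figure D1:**
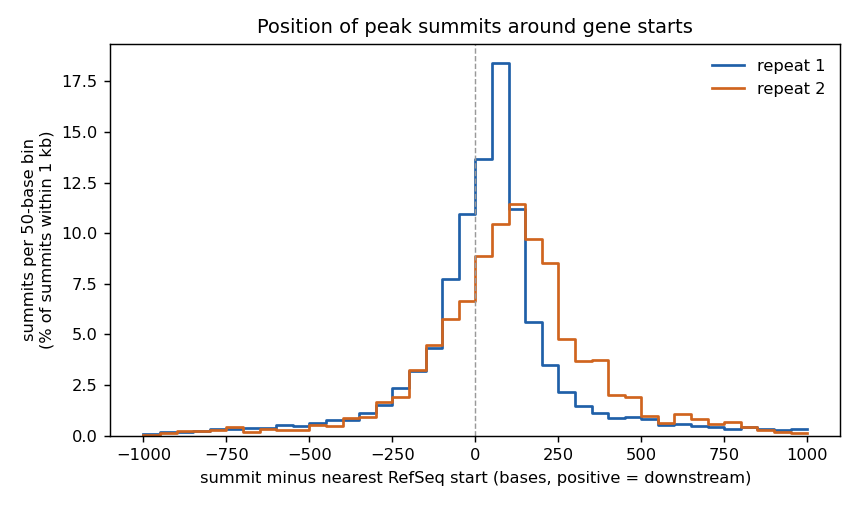
Distance from each peak summit to the nearest RefSeq start (x axis, bases, positive downstream) in 50-base bins, as the percentage of summits within 1 kb (y axis), for repeats 1 and 2. Repeat 1 is highest at 50 to 100 bases downstream, with 18.4% of its summits there, and repeat 2 is highest at 100 to 150 bases, with 11.4%.

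The repeats differed in number, strength scale and width. Fold was read by column position and taken as summit signal over local background. Its median was 3.21 in repeat 1, with a range of 1.47 to 25.8, and 5.87 in repeat 2, with a range of 3.05 to 21.4. The median -log10 q went the other way, at 12.1 in repeat 1 and 4.50 in repeat 2. The folds of repeat 2 took 650 distinct values over 2816 peaks, against 5184 over 10055 in repeat 1. Peaks were 362 bases wide at the median in repeat 1 and 320 in repeat 2, and they covered 4.23 and 1.04 Mb. Folds of the 2 repeats are therefore compared below by rank.

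Of repeat 2 peaks, 2265 (80.4%, 78.9 to 81.9) overlapped a repeat 1 peak by at least 1 base, and 2277 repeat 1 peaks (22.6%, 21.8 to 23.5) overlapped a repeat 2 peak, in 2312 pairs. Paired summits lay 118 bases apart at the median, and 76.9% of pairs had summits within 250 bases. Both peaks had the same annotation class in 99.5% of pairs and named the same gene in 95.4%. Peak strength did not carry over: across the 2312 pairs, Spearman's rho between repeats was 0.016 for fold (Pearson's r of log2 fold 0.026), 0.086 for -log10 q and 0.129 for width. These correlations run over peaks of 1 pair of libraries, which share sequence and mappability, and are given as a description. Of the 100 peaks with the highest folds in each repeat, 24 in repeat 1 and 96 in repeat 2 had a partner, and 1 pair was in both sets. Of the 100 widest, 70 and 95 had a partner, with 8 pairs in both sets. Taking only the 2816 highest folds of repeat 1, the same number as repeat 2 has, left 22.9% of repeat 2 peaks with a partner in place of 80.4%.

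**Figure D2:**
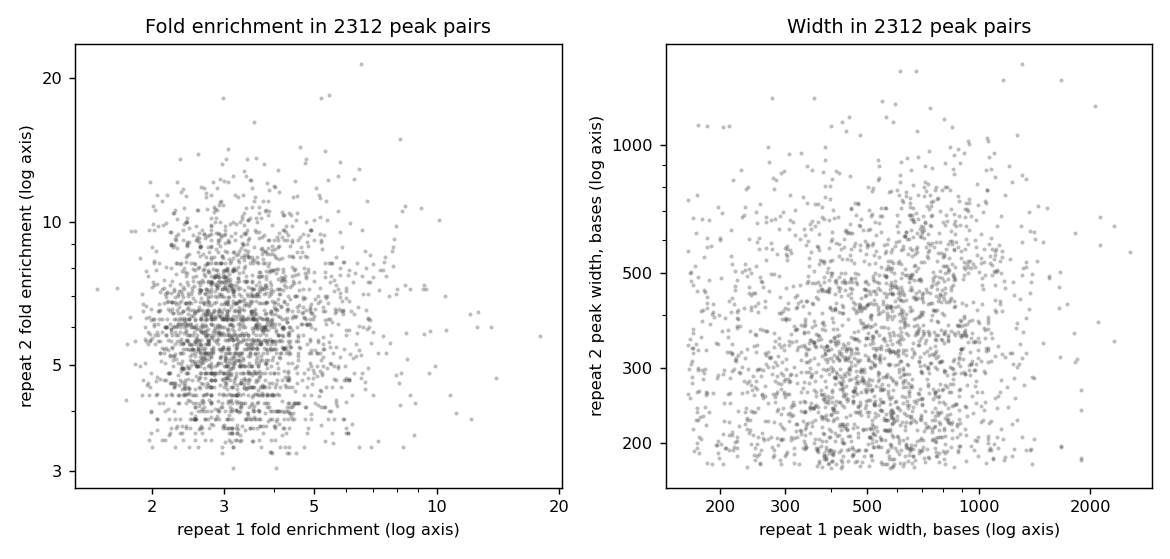
Fold enrichment (left) and peak width in bases (right) of each of the 2312 overlapping peak pairs, repeat 1 on the x axis and repeat 2 on the y axis, log axes. Points form a cloud without a slope for fold (rho 0.016) and a weak one for width (rho 0.129).

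Width and GC content tracked whether a repeat 1 peak had a partner, and fold did not. Over 10 equal bins of the repeat 1 peaks ranked by fold, the share with a partner stayed between 19.9% and 25.3%. Ranked by width, it went from 7.46% in the narrowest bin (164 to 189 bases) to 55.7% in the widest (730 to 4039 bases). Ranked by -log10 q, it went from 11.8% to 34.0%. A wide peak offers more bases to overlap, so a partner was also counted from summits alone. The share of repeat 1 peaks with a repeat 2 summit within 250 bases of their own still went from 6.56% in the narrowest bin to 35.1% in the widest, and was 16.1% to 19.6% over the bins by fold. Narrow peaks of high fold had the fewest partners. With peaks split into 4 equal bins by width and 4 by fold, the share in the narrowest bin went from 14.8% of 864 peaks at the lowest folds to 0.376% of 532 peaks (2 peaks) at the highest, while in the widest bin it was 43.9% to 44.5% at every fold. In repeat 2 the share with a partner was 66.7% in the narrowest bin and 91.1% in the widest.

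**Figure D3:**
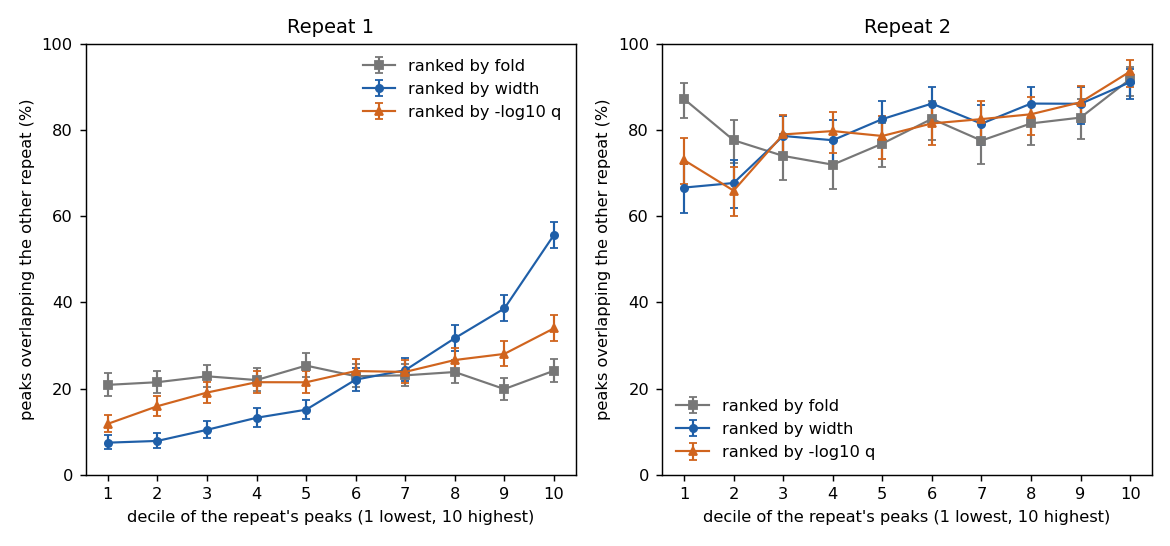
Percentage of peaks that overlap a peak of the other repeat (y axis) by decile of the repeat's own peaks (x axis, 1 lowest), ranked by fold, width or -log10 q, with exact 95% binomial intervals as bars. In repeat 1 the fold line is flat near 20 to 25% and the width line climbs from 7.46% to 55.7%.

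The 10 promoters with the best mean rank by fold in both repeats included chromatin and transcription regulators. KMT5B, a histone H4 lysine 20 methyltransferase, had folds of 8.39 in repeat 1 and 10.8 in repeat 2, over peaks of 1340 and 833 bases (chr11:68212858-68214197 in repeat 1). PHF21A, a subunit of a histone demethylase complex that reads unmethylated lysine 4 of histone H3, had 6.45 and 12.9 (chr11:46121366-46122174). CEBPB, a bZIP transcription factor, had 8.21 and 10.6, with the repeat 2 peak assigned to CEBPB-AS1 beside it (chr20:50190683-50191489). NR2F6, an orphan nuclear receptor, had 6.75 and 11.04 (chr19:17245605-17246284). ATXN2, an RNA binding protein of stress granules, had the highest fold of repeat 2, 21.4, and ranked 314 in repeat 1 with 6.51 (chr12:111599088-111599770). The pair with the best mean rank lay at CCDC85C and AL160313.1 (chr14:99604226-99604580), with folds of 8.14 and 14.9. The others were GALNS, a lysosomal sulfatase (9.14 and 10.7), AC020916.1 (10.1 and 10.1), IGF2R, the mannose 6-phosphate receptor (7.97 and 9.82), and C21orf91 (7.87 and 9.22). The ranks in repeat 1 ran from 46 to 321 and in repeat 2 from 1 to 212, so these 10 were not the highest folds of either repeat alone, ATXN2 and CCDC85C in repeat 2 excepted.

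The widest pairs, by the narrower of the 2 peaks, marked other genes. KLF2, a zinc finger transcription factor of the immediate early kind, had peaks of 1667 and 1423 bases with folds of 5.20 and 9.15. TMEM158 had 1310 and 1551 bases, FASN, the fatty acid synthase, 2056 and 1235, IRS2, an adaptor of the insulin receptor, 1162 and 1427, and ECPAS, a proteasome adaptor, 1268 and 1058. Their ranks by fold were from 132 to 3386 in repeat 1.

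The highest folds of each repeat were mostly at different genes. In repeat 1, RNU5F-1, a U5 small nuclear RNA gene, led with 25.8 (chr1:44721577-44721797), followed by RNU5E-4P at 19.4, LRRC74B at 18.5, RNU5A-8P at 18.5 and PKNOX1, a homeobox gene, at 17.9. Among these PKNOX1 alone had a partner, with a repeat 2 fold of 5.77. CIC, a transcriptional repressor, had 17.2 at one start (chr19:42268855-42269457) with no partner there. A repeat 2 peak of 4.17 lay at another CIC start 14930 bases downstream of it, where it overlapped a repeat 1 peak of 3.36, so CIC was bound in both repeats at that start. In repeat 2, ATXN2 was followed by RNA5-8SN3 at 18.5, TEAD1, a transcription factor of the Hippo pathway, at 18.2, and CCDC85C at 14.9 was also among the 5 highest. Each of these named peaks had a partner. The 2 repeat 1 peaks under the TEAD1 peak had 2.99 and 5.22. The strongest repeat 2 peaks without a partner were near COL15A1 (12.4) and at ZBTB42 (11.1), near AC068489.1 (10.6), and at BX255925.1 (10.5) and DACT1 (10.2).

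Small nuclear and other short structural RNA genes were bound in repeat 1 only by the peak calls. Repeat 1 held 21 peaks assigned to 19 such genes, and 6 at symbols of their pseudogenes, against 0 in repeat 2. None of the 27 overlapped a repeat 2 peak, against 22.6% of all repeat 1 peaks. Among all repeat 1 peaks, narrow ones of high fold seldom had a partner. In the bin of highest folds the share was 0.376% in the narrowest of 4 width bins and 7.72% in the next. The 21 had folds of 2.00 to 25.8 with a median of 5.77, against 3.21 over all repeat 1 peaks. They included spliceosomal U1 (RNU1-2, 11.3 and 7.89 in 2 peaks), U5 (RNU5D-1, 9.25, and RNU5A-1, 6.78), U12 (RNU12, 7.76), U4 (RNU4-2, 5.77 and 4.86), U11 (RNU11, 4.52) and U4atac (RNU4ATAC, 5.52). RPPH1, the RNA of RNase P, had 6.66, RN7SK, which holds back P-TEFb, 4.32, and RMRP, the RNA of RNase MRP, 2.59. The list was drawn up after these peaks were seen. The genes have near-identical copies elsewhere in the genome, so which copy was bound is uncertain, and RNVU1-7 and RNVU1-29 had the same fold, 7.84. The difference between repeats was not tested.

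Mitochondrial DNA also differed between repeats, and annotated ribosomal DNA had peaks in both. Repeat 1 had 11 peaks on the mitochondrial genome that covered 9468 bases, and repeat 2 had 0. The peak at chrM:16007-16561, assigned to MT-TP, had a fold of 12.8 and a -log10 q of 1220, the highest of any repeat 1 peak, with 527 at ACAP2 next. At the 5.8S ribosomal RNA genes of chromosome 21, both repeats had peaks. The fold was 18.5 in repeat 2 and 5.44 in repeat 1 at RNA5-8SN3, and 7.24 and 1.47 at RNA5-8SN2. The -log10 q was 43.4 in repeat 2 and 61.3 in repeat 1 at RNA5-8SN3, and 42.4 and 22.3 at RNA5-8SN2. Folds of the 2 repeats are on different scales. These gene copies are near-identical, and the sources used here do not say how reads with several matches were handled.

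Peaks away from promoters were few, and a smaller share of them had a partner than of promoter peaks. Repeat 1 had 368 distal intergenic peaks (3.66%), of which 9.78% had a partner, and 337 intronic peaks (3.35%), of which 3.86% (13 peaks) had one, against 24.5% of the 8981 promoter peaks. In repeat 2, 60.0% of 60 distal and 35.1% of 37 intronic peaks had a partner, against 82.1% of promoter peaks. Intronic peaks of repeat 1 had a median fold of 4.28, above the 3.16 of promoter peaks, with a median -log10 q of 3.59, below 12.8, and a median width of 214 against 380 bases. The strongest shared distal pair by repeat 1 fold lay near AL353803.1 (chr9:129413209-129414030, 9.91 and 4.97), followed by pairs near TEX44 (8.17 and 4.82), LINC02557 (6.99 and 4.33), CHRM4 (5.37 and 6.09) and HERC2P7 (5.17 and 9.44). The intronic ones lay in or near ZMIZ1-AS1 (4.94 and 6.43), LDB3 (4.49 and 4.42), TMEM181 (4.31 and 6.5), RPS10P7 (3.82 and 7.08) and SPRY4-AS1 (3.69 and 3.73).

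The chromosomes took peaks in similar proportion in both repeats except X. For each autosome, repeat 1 had 2.51 to 4.336 peaks per repeat 2 peak, and on X it had 8.91 (196 and 22 peaks). X held 1.95% of repeat 1 peaks (1.69 to 2.24) and 0.781% of repeat 2 peaks (0.490 to 1.2), with 3.22% of RefSeq genes. Of the 22 repeat 2 peaks on X, 86.4% had a partner, and of the 196 in repeat 1, 10.2%. Chromosome 21 had the highest partnered share in repeat 1, 32.7% of 98 peaks.

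Promoter occupancy rose with GC content. Sequence was read for promoters alone, and 6031 of the 10055 repeat 1 peaks and 1454 of the 2816 repeat 2 peaks lay at a window. Peaks were laid over 34943 RefSeq windows of 300 bases, from 250 before to 50 after a gene start. In repeat 1, 23.8% of windows overlapped a peak, and in repeat 2, 5.34%. From the lowest to the highest of 10 bins of windows by GC content, the share with a repeat 1 peak went from 0.0286% to 64.7%, and with a repeat 2 peak from 0% to 31.8%. Median GC was 76.0% in the 1636 windows with peaks in both repeats, 69.3% in 6689 with a repeat 1 peak only, 74.0% in 229 with a repeat 2 peak only, and 53.3% in 26389 with neither. The ratio of observed to expected CpG was 0.944, 0.887, 0.899 and 0.360 in the same order. The windows of repeat 1 peaks with a partner were thus the richest in GC, and this held among peaks of like width. In the narrowest of 4 width bins the share of repeat 1 peaks with a partner went from 3.14% in the lowest of 4 GC bins to 32.9% in the highest, and in the widest from 31.0% to 64.9%. GC followed width (rho 0.34 over 6031 repeat 1 peaks at windows) and hardly fold (rho -0.07). These are descriptions across windows and peaks of 1 library each. GC content also affects amplification and sequencing of any library, and its part here was not tested.

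**Figure D4:**
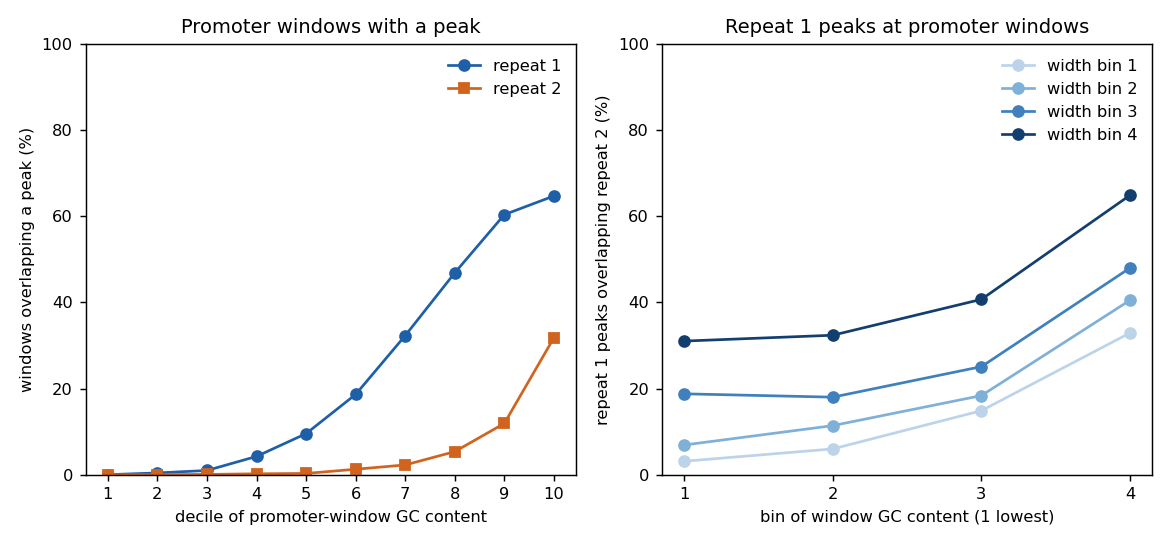
Left, percentage of 34943 promoter windows that overlap a peak (y axis) by decile of window GC content (x axis) in each repeat. Right, percentage of repeat 1 promoter peaks that overlap a repeat 2 peak (y axis) by GC bin of the window (x axis, 1 lowest to 4 highest), 1 line per width bin (1 narrowest, 4 widest). The share rises with GC in each line, to 32.9% for the narrowest peaks and 64.9% for the widest, apart from a dip from 18.8% to 18.0% between GC bins 1 and 2 in width bin 3.

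Short motifs were counted in the same windows, on both strands. The GC box GGGCGG stood in 92.2% of windows bound in both repeats, 81.5% bound in repeat 1 only, 87.8% in repeat 2 only and 32.3% bound in neither, against 44.9% of all windows. A G-quadruplex pattern, 4 runs of at least 3 G with loops of 1 to 7 bases, stood in 59.1%, 39.7%, 57.6% and 18.8%, against 24.9% of all. The ETS motif CCGGAAG was most frequent in windows bound in repeat 1 only, at 21.7% (20.7 to 22.7), against 14.2% (12.6 to 16.0) in both, 8.30% in repeat 2 only and 7.07% in neither. The NRF1 motif stood in 13.3%, 10.6%, 3.93% and 3.53% in that order, and the YY1 motif ATGGCGG in 12.8%, 12.1%, 3.06% and 3.34%. TATAAA, the TATA box, was the less frequent in bound windows, at 2.2% in both and 3.20% in repeat 1 only against 14.3% in neither, and the AP-1 motif TGANTCA stood in 3.30%, 3.23% and 9.18%. GC-rich motifs occur more often in GC-rich windows by composition, and no match shows binding by the factor.

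Windows with a divergent start, a RefSeq start on the other strand within 1 kb upstream, were bound more often. They overlapped a peak in 48.6% of 6239 cases in repeat 1 and 9.39% in repeat 2, and windows without one in 18.4% and 4.46% of 28704. Windows of protein-coding genes were bound in 31.7% and 7.11%, and those of lncRNA genes in 10.3% and 2.31%.

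By gene, 7509 of 25243 genes of the run-on count table with a RefSeq symbol had a promoter peak in repeat 1, 29.7% of all, 2395 had one in repeat 2, 9.49% of all, and 2044 in both, 8.1% of all. The shares below are read against these 3 values, and none was tested. All genes include 1874 MIR genes, of which 1.71% were bound in repeat 1, and 376 olfactory receptor genes, of which 0 were. A gene counts as bound where the annotation assigned a promoter peak to its name, so a site bound in both repeats can count under 2 names. Folds given for a gene bound in both are those of an overlapping pair of peaks. The SOSS genes came first. NABP2 itself had a promoter peak in repeat 1 with a fold of 4.50 (chr12:56224245-56224477), and NABP1 one of 4.73 (chr2:191677944-191678274), ranks 1571 and 1322 of 10055. Neither had a repeat 2 peak, and INTS3 and INIP had no peak of any class in either repeat. Of the 14 Integrator subunits other than INTS3, 7 had a promoter peak in repeat 1 and 2 in both. INTS6 had 2 peaks in repeat 1 (6.09 and 3.64) and 3 in repeat 2 (4.65, 5.93 and 4.44), and INTS15 had 3.41 and 6.25. INTS5 had 4.39 and INTS14 3.64 in repeat 1 alone.

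Transcription and stress genes were bound widely in repeat 1. Of 25 factors of polymerase pausing and elongation, 18 were bound in repeat 1 and 5 in both, among them SUPT4H1, a subunit of DSIF, at 4.81 and 5.54, NELFCD, a subunit of the pausing factor NELF, at 3.81 and 5.13, and ELL2, an elongation factor, at 3.29 and 4.98. Of 12 polymerase II subunits, 7 had a peak under their name in repeat 1 and 0 in repeat 2. The POLR2L peak of repeat 1 (5.56) nevertheless overlapped a repeat 2 peak (3.43) that was assigned to TSPAN4. Of 19 targets of ATF4 and the unfolded protein response, 17 were bound in repeat 1 (89.5%, 66.9 to 98.7), among them ATF4 itself (4.91), CALR, an endoplasmic reticulum chaperone (5.92), and ERN1, a sensor of unfolded protein (5.11), and 0 in repeat 2 (interval 0 to 17.6). No promoter peak of the 17 overlapped a repeat 2 peak under another name. Of 26 hypoxia and glycolysis genes, 21 were bound in repeat 1 and 6 in both, with PDK1 at 3.06 and 7.98, HK1 at 2.38 and 6.5, PFKP at 2.18 and 7.13 and BNIP3 at 3.98 and 6.02. Of 22 p53 targets, 18 and 4 were, with BBC3 at 3.38 and 8.73, PLK3 at 5.12 and 6.74, SESN1 at 6.55 and 4.81 and TP53INP1 at 3.20 and 6.74. Of 18 heat shock genes, 14 and 4 were, with DNAJB1 at 7.94 and 4.76, though the peaks of HSF2 and BAG3 did not overlap between repeats. Of 18 immediate early genes, 12 and 4 were, with KLF6 at 6.05 and 7.72. FOS (8.54), ATF3 (7.23), MYC (6.43) and JUN (5.71) had repeat 1 peaks only.

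Genes of R-loops, repair and replication were bound above 60% in repeat 1, and in repeat 2 their shares lay on both sides of the 9.49% of all genes. The repeat 2 share was 14.6% of S-phase genes, 8.89% of splicing genes, 8.33% of repair genes, 4.17% of R-loop factors and 4.0% of G2 and mitosis genes. Of 24 R-loop factors, 18 were bound in repeat 1, among them DDX5, an RNA helicase (5.50), RNASEH2C, a subunit of RNase H2 (5.32), and XRN2, the 5' to 3' exonuclease of termination (4.96). TDRD3, the scaffold of TOP3B, was bound in both, at 2.99 and 7.90. Of 36 genes of break repair and replication stress, 22 were bound in repeat 1 and 3 in both: FANCA (3.98 and 5.40), TOPBP1 (3.15 and 3.61) and RPA1, a subunit of the main single-stranded DNA binding complex (2.47 and 3.37). Of 41 S-phase genes, 25 and 6 were, with RRM2, a subunit of ribonucleotide reductase, at 3.08 and 9.14, and MCM7, a subunit of the replicative helicase, at 4.74 and 7.80. Of 25 genes of G2 and mitosis, 17 and 1 were, the latter CENPA at 2.32 and 6.43. Of 45 splicing factors and hnRNPs, 29 and 4 were, with HNRNPL at 3.16 and 8.66. HNRNPL, RRM2 and CENPA had a stronger repeat 1 peak at another site, of 8.27, 4.74 and 2.88 in that order, as had HK1 (4.08), PFKP (3.40) and BBC3 (3.57). The SRSF6 peak of repeat 1 (4.88) overlapped a repeat 2 peak (5.06) assigned to AL031681.3, and SRSF6 is not among the 4.

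Large families of housekeeping genes were bound in repeat 1 and rarely in repeat 2. Cytosolic ribosomal protein genes had a promoter peak in 49 of 88 cases in repeat 1 (55.7%, 44.7 to 66.3) and 2 in repeat 2 (2.27%, 0.276 to 7.97), RPS19 (4.42 and 9.08) and RPS7 (3.56 and 4.01). Mitochondrial ribosomal protein genes had 37 of 76 (48.7%, 37.0 to 60.4) and 0 (interval 0 to 4.74). Proteasome genes had 16 of 39 (41.0%, 25.6 to 57.9) and 1, and complex I genes 16 of 36 (44.4%, 27.9 to 61.9) and 1. Replication-dependent histone genes had 24 of 66 (36.4%, 24.9 to 49.1) and 0 (interval 0 to 5.44). In repeat 1 the intervals of proteasome, complex I and histone genes hold the 29.7% of all genes. The histone genes had a median fold in repeat 1 of 5.13, led by H4C2 at 9.61 and H2AC20 at 9.50. These histone genes are near-identical copies, and their assignment is uncertain. HOX genes, outside the housekeeping families, had 8 of 39 in each repeat (20.5%, 9.30 to 36.5). That was under the 29.7% of all genes in repeat 1 and over the 9.49% in repeat 2, but the interval holds both. Of the HOX genes 6 were bound in both, among them HOXB8 at 3.51 and 5.99 and HOXD8 at 3.44 and 5.77. Of 525 ZNF genes, 34.5% were bound in repeat 1, near the 29.7% of all genes, and 7.05% in repeat 2.

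Marker genes of other cell types and olfactory receptor genes were bound rarely. Of 15 leukocyte markers, 0 had a promoter peak (interval 0 to 21.8), and of 376 olfactory receptor genes 0 (0 to 0.976). Epithelial markers had 1 of 15 in repeat 1, CLDN7 at 2.61, and neural markers 1 of 15 in both, MAP2 at 2.79 and 6.26. Mesenchymal markers had 10 of 15 in repeat 1, FN1, the matrix protein fibronectin, leading with 11.6 and VIM, vimentin, at 7.01, and 2 of 15 in both, CDH2 at 2.74 and 5.65 and TWIST1 at 2.66 and 3.61. In the WT run-on libraries with NTP, mesenchymal markers had 4.0, 1.67 and 1.37 counts per kb on the CPM scale in repeats 1 to 3, epithelial markers 1.17, 0.340 and 0.634, leukocyte markers 0.988, 0.403 and 1.22, and neural markers 0.357, 0 and 0.335. Mesenchymal markers were the highest in each library, and counts on leukocyte markers came close to them in repeat 3. The counts behind these values were few. In the same order of lists they were 39, 7, 5 and 8 in repeat 1 and 8, 1, 1 and 0 in repeat 2. In repeat 3 they were 183, 52, 85 and 103. Of interferon-stimulated genes, 4 of 25 were bound in repeat 1, and IFIH1 in repeat 2 alone at 8.69.

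**Figure D5:**
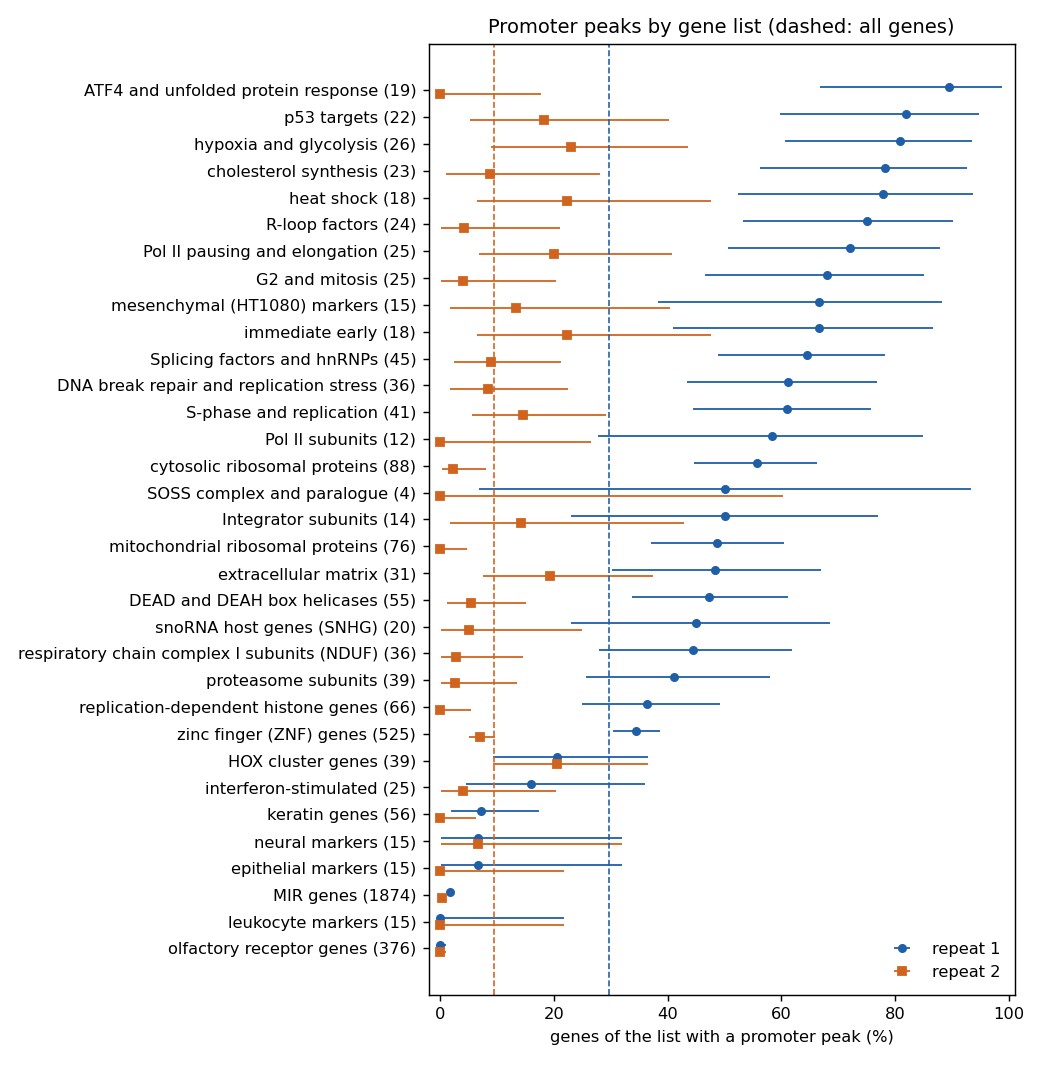
Percentage of the genes in each list (number in brackets) with a promoter peak in repeat 1 (circles) or repeat 2 (squares), with exact 95% binomial intervals as bars and the value over all genes as dashed lines, 29.7% and 9.49%. Stress, metabolic and transcription lists lie to the right of the repeat 1 line, and so do ribosomal protein, proteasome and histone genes. Among the lists to its right, the intervals of SOSS, Integrator, polymerase II, snoRNA host, proteasome, complex I and histone genes cross that line. Ribosomal protein and histone genes lie at or below 2.27% in repeat 2.

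Bound genes carried more run-on counts in WT cells. The run-on libraries with NTP are shallow, with 11981, 5883 and 164357 counts in WT repeats 1 to 3. Genes bound in both repeats had a count in 38.5%, 19.5% and 99.5% of cases, and genes bound in neither in 12.9%, 6.78% and 67.8%. The mean CPM per gene bound in both was 2.40, 2.89 and 3.43 times that of genes bound in neither (mean 2.91 ± 0.517, SD, n = 3), and for genes bound in repeat 1 only 2.22, 1.90 and 3.07 times. Bound genes were also longer, with a median gene length of 49.2 kb for both, 30.5 kb for repeat 1 only and 12.7 kb for neither. Per kb of gene the ratios to genes bound in neither were 1.19, 1.43 and 1.70 for both and 1.62, 1.39 and 2.24 for repeat 1 only. They exceeded 1 in each of the 3 WT libraries with NTP, in the order of repeats given. In the 6 libraries of the 2 knockouts with NTP the ratio per kb for genes bound in both was 1.17 to 2.57. The WT libraries without NTP gave ratios of like size for genes bound in both, 2.50, 3.00 and 3.16 by mean CPM and 1.24, 1.48 and 1.56 per kb. Over all 9 libraries without NTP the ratio was 1.76 to 3.51 by mean CPM and 0.873 to 1.74 per kb, and per kb it was under 1 in repeat 1 of both knockouts. Wider repeat 1 peaks lay at genes with more counts: mean CPM per gene in the widest of 4 bins was 81.2, 78.7 and 90.3 in WT repeats 1 to 3, and in the narrowest 52.2, 53.1 and 61.0, with median gene lengths of 42.5 and 30.0 kb. The same held by fold: mean CPM was 85.7, 74.9 and 85.7 in the bin of highest fold and 54.8, 57.1 and 67.6 in the lowest, and there the gene lengths went the other way, with medians of 29.6 and 39.8 kb.

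Peaks called from the run-on libraries lay on hNABP2 peaks in part, and those called from WT DRIP seldom. Of the WT run-on peaks with NTP, 37.2%, 30.8% and 78.8% in repeats 1 to 3 overlapped a repeat 1 ChIP peak by at least 1 base, and 6.38%, 7.18% and 19.7% a repeat 2 peak. Shares of like size, 39.4%, 36.4% and 74.6%, lay within 1 kb of a start in the RefSeq promoter table. Whether the overlap with ChIP peaks goes beyond a shared position at promoters was not tested. In the knockouts the shares on repeat 1 peaks were 24.6% to 47.1%. The run-on list of hNABP1 KO repeat 3 stood apart with 9965 peaks, against 94 to 518 in the other 8 lists, and it overlapped 48.1% of repeat 1 and 55.0% of repeat 2 ChIP peaks. The other 8 lists each overlapped at most 2.08% and 1.88%. WT DRIP peaks lay on repeat 1 ChIP peaks in 9 of 173 (5.20%, 2.41 to 9.65) and 1 of 107 cases (0.935%, 0.0237 to 5.10) and on repeat 2 peaks in 0 cases. The 10 sites were at TP53BP2, ZNF202, CSNK2A2, SETBP1, MAT2A, SUCLG2, MAGEF1, CDCA7L, PHF19 and RAB5B, with ChIP folds of 2.00 to 4.56. Of hNABP2 KO DRIP peaks, 1 of 13 and 46 of 167 (27.5%, 20.9 to 34.98) lay on repeat 1 ChIP peaks. The 46 included RN7SK, RMRP, RNA5-8SN2, RNA5-8SN3 and 9 on the mitochondrial genome. On repeat 2 ChIP peaks lay 0 of 13 and 9 of 167 (5.39%, 2.49 to 9.98). In these 2 KO lists 15.4% and 25.1% of peaks lay within 1 kb of a RefSeq start. For WT DRIP peaks of repeats 1 and 2 the shares near a start were 10.98% and 8.41%. Few WT DRIP peaks thus lay at promoters, where most ChIP peaks were. Whether their low overlap with ChIP peaks goes beyond this was not tested.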

How the data were processed

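ChIP-seq peaks of 2 anti-hNABP2 libraries of WT HT1080 cells were analysed, with run-on gene counts of 18 libraries and peak lists of 13 run-on and DRIP libraries. The submitters' processing notes list hg38 as the build, and MACS2 2.2.1, Bowtie2 2.3.5, cutadapt 1.18 and SAMtools as tools. The sources used here do not give the settings of peak calling, its control or the handling of duplicates. Read by column position, the deposited tables give each peak a fold (taken as a ratio to local background), a -log10 p and a -log10 q, and the lists a score. The authors deposited the run-on counts per gene symbol as raw counts, without normalization. No read counts stand behind the peaks, so intervals on shares cover counting error of peaks or genes only.

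Overlaps were counted at 1 base or more, with no test, since 1 list per repeat allows none. Intervals are exact Clopper-Pearson 95% intervals. A promoter peak is one whose annotated distance to a start is at most 1 kb. Genes are the 25243 of the count table that match RefSeq, of 26475. Of the promoter peaks, 8715 of 8981 and 2586 of 2658 had such a symbol. Windows are RefSeq promoter sequences of GRCh38.p14. Python 3.11.15, pandas 2.3.3, scipy 1.17.1 and matplotlib 3.10.9 were used, and overlaps and motif searches were tested on simulated data.

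The peaks and gene lists were chosen with earlier results of these data known. Genes are named by rule: the 10 shared promoters with the best mean rank, the 5 widest pairs, the 5 strongest shared distal and intronic pairs, the 5 strongest peaks without a partner per repeat, every SOSS gene and up to 4 members per list bound in both repeats by the mean of the highest fold in each repeat. Pairs of overlapping peaks at these genes, whose folds are printed, were added after seeing the data. Members bound in 1 repeat, named by fold, the genes at WT DRIP sites, the small RNA genes and the comparisons of GC with width were chosen after their values were seen. A few genes that the rules name are not reported here. Alternatives are given in the closing section.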

Additional observations from a re-analysis of the deposited data

Results flagged for a closer look

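Repeat 2 held 12 peaks on KI270733v1, an unlocalized sequence of chromosome 22 that carries ribosomal DNA, and repeat 1 held 0. These peaks are in the list of repeat 2 and not in its annotation, so no comparison above used them. They lie between bases 125208 and 175253 of that sequence, with folds of 4.60 to 18.2. Values of the IgG libraries were not analysed here, so no control stands beside them, and the difference between repeats was not tested.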

How the results depend on the processing

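No paired analysis was possible because the repeats are compared as peak lists without a test, and no values of the IgG libraries with the same numbers were analysed. Requiring 50% of each peak lowered the share with a partner to 42.1% of repeat 2 and 11.8% of repeat 1 peaks and gave a rho of fold of 0.085. Taking the strongest repeat 1 peaks, as many as repeat 2 has, gave 22.9% of repeat 2 peaks with a partner and a promoter share of 82.6% in repeat 1. A -log10 q of at least 5 gave 11.2% of repeat 1 peaks with a partner, a repeat 1 promoter share of 92.9%, median widths of 394 and 393 bases and 857 genes bound in both repeats. Summits within 250 bases, chosen after seeing the data, gave 17.8% of repeat 1 peaks. Within 3 kb of a start the promoter shares were 92.0% and 96.1%. The rho was 0.086 by -log10 q and 0.129 by width. The gene count ran from 2395 to 7509 on leaving out a repeat. With 200 bases in place of 300, the GC box stood in 85.4% of windows bound in both and 27.8% in neither, and the G-quadruplex pattern in 46.7% and 14.7%. The causes of these shifts were not tested beyond what each choice removes. The ratio of run-on counts was 2.65 to 3.16 on leaving out a library. RNA45S5 and RNA28S5 match no RefSeq gene and were outside the ratio already. The other 17 settings stayed within the interval, the SD or 1.5 times of the reported value. The number of peaks in repeat 2 and the unknown depth of both libraries limit what absence of a partner shows.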
